A study of Mus musculus with 10 samples.

Results

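Mtf2 peaks inside gene bodies were chosen from the peak list of the WT CD71+Ter119-/lo cells, the pro-erythroblast fraction. A peak was kept when its summit lay on an autosome within a protein-coding gene and the peak touched no base within 5 kb of any protein-coding transcription start site (TSS). Of 28918 Mtf2 peaks in the list, 25805 lay on autosomes, and 5460 of these (21.2%) met the rule, in 2406 host genes. The other autosomal peaks were 18440 between genes (71.5%) and 1905 near a TSS (7.38%). Because the members were selected on this list, their number, scores and fold enrichments describe the selection and were not tested.

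The series holds 10 libraries of chromatin immunoprecipitation with sequencing (ChIP-seq) from fetal liver at E14.5, in the C57Bl/6 background: 6 ChIP and 4 rabbit IgG control libraries. Erythroid cells were sorted as CD71+Ter119-/lo and as the later CD71+Ter119high fraction, from Pcl2+/+ (WT) and Pcl2-/- (Mtf2-null) embryos; Pcl2 is another name of Mtf2. H3K27me3 was profiled in both fractions of both genotypes and Mtf2 in both fractions of WT, with 1 library per condition, so there is no replicate spread and no condition was tested against another. The null allele came from gene-targeted embryonic stem cells that were aggregated with CD1 blastocysts, and Mtf2 was lost in whole embryos, not in erythroid cells alone.

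Mtf2 is a Polycomb-like subunit of Polycomb repressive complex 2 (PRC2), the enzyme that places methyl groups on lysine 27 of histone H3. Its DNA-binding domain prefers unmethylated CpG-rich DNA, and its best known sites in the genome are CpG islands at the promoters of silent developmental genes. Introns are a different setting. They are long, mostly poor in CpG, and hold many copies of transposable elements, which are usually kept silent by DNA methylation and by marks other than H3K27me3. An element with long terminal repeats (LTR) carries the same sequence at both of its ends in the same orientation.

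The peaks with the highest scores were copies of one repeated sequence. The 8 highest-scoring peaks, in introns of Lphn3, Tmem163, Dip2c, Osbpl10, Fmo1, Alk, Ankrd22 and Wdr70, were 7109 to 8003 bp long, and all belonged to 1 sequence family (families are defined with their results). In Lphn3, which encodes a latrophilin adhesion receptor, the peak at chr5:81806697-81814072 (mm9) had a score of 1996 from 488 tags, 40.6-fold over IgG. The score is 10 times −log10 of the p-value of the peak caller. The same 338 bases stood at both ends of a 7.10-kb stretch there, with 100% identity, and reading frames of 895 and 595 codons lay between them on the same strand. In the other 5 of the 6 highest-scoring peaks, the direct repeats were 340 to 459 bases long with 99.73% to 100% identity, and spanned 7.11 to 7.38 kb. The first bases of this terminal repeat in those 6 peaks are shown because they carry the likeness between distant loci. They are mouse reference sequence read on the strand of the Lphn3 copy, and capitals mark CpG dinucleotides.
Lphn3 (chr5:81806725-81806824, + strand): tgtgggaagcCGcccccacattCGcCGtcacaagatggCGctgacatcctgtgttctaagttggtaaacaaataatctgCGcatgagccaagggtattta
Tmem163 (chr1:129455104-129455201, − strand): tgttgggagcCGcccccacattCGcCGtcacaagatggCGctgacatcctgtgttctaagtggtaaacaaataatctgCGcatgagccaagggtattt
Dip2c (chr13:9432162-9432257, − strand): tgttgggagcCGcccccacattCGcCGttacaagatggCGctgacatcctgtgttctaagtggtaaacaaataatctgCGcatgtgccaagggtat
Osbpl10 (chr9:114987420-114987515, − strand): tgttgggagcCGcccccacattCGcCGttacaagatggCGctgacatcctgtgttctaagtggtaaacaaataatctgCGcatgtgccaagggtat
Fmo1 (chr1:164770669-164770768, + strand): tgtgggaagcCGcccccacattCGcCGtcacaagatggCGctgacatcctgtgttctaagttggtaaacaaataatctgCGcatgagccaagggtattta
Alk (chr17:72798671-72798768, + strand): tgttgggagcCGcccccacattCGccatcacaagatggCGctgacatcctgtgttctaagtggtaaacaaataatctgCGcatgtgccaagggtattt
Over the aligned bases these stretches were 94.8% to 100% identical to that of Lphn3, and each held 4 or 5 CpG.

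Other members had other sequences at the summit. The 101 bases centred on the summit are given for the peaks at the ends of the range of score, base composition and length, for the peak with the highest score among those called in both fractions, and for 3 further peaks chosen after their values were seen. All are on the + strand of mm9, and capitals again mark CpG.
Lphn3, highest score (chr5:81809849-81809949): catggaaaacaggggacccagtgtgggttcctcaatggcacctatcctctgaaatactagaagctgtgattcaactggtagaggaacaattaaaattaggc
Tmem163, highest score with a Mtf2 peak in both fractions (chr1:129460822-129460922): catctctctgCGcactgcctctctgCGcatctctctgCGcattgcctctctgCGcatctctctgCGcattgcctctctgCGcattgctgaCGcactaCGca
Zfp704, highest GC content (chr3:9451312-9451412): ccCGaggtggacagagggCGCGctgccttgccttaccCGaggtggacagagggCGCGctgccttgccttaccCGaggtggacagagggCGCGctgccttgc
Gtf3c3, lowest GC content (chr1:54467694-54467794): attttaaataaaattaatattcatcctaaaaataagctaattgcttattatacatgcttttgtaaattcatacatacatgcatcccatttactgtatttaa
Gm7995, longest (chr14:42850809-42850909): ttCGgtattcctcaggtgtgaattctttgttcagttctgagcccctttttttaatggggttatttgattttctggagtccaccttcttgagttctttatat
Lmbr1, highest fold enrichment (chr5:29682215-29682315): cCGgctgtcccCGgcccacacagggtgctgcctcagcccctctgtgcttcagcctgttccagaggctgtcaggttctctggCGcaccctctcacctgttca
Gm20388, highest score with H3K27me3 in WT CD71+Ter119high cells (chr8:126074395-126074495): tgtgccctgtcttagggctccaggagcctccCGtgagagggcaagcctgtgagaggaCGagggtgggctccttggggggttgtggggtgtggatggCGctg
Xpnpep1, highest score in single-copy sequence among peaks of at least 500 bp (chr19:53041749-53041849): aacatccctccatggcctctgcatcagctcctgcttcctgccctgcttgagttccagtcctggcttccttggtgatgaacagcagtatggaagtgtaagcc
The window in Tmem163 held 8 CpG and that in Zfp704 held 9, in short units repeated in tandem, whereas those in Lphn3, Gtf3c3 and Xpnpep1 held 0.

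The library behind these peaks was deep but redundant. It held 83941685 tags, of which 29009650 (34.6%) had distinct positions, against 16898992 of 22370612 (75.5%) in its IgG control. The false discovery rate (FDR) that the peak caller gave its peaks was 0% to 0.31%. The Mtf2 list of CD71+Ter119high cells rested on 15669899 distinct tags of 39481374 (39.7%) and had a median FDR of 8.42%. The median FDR was 11.2% and 14.7% for the WT H3K27me3 lists of the earlier and later fractions, and 100% and 0.280% for the Mtf2-null lists in the same order. These libraries differed in depth, with 18945784 and 30054186 distinct tags in WT and 37026535 and 67169672 in Mtf2-null cells, in that order. Depth was not matched between lists. WT Mtf2 and WT H3K27me3 of a fraction were called against the same IgG library. The peak lists give no reads, so tags at 1 copy of a repeated sequence cannot be told apart from tags that belong to another copy. All intervals are 95% Wilson intervals of the share. They cover counting error only, and peaks at copies of one sequence are not independent.

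The members covered 9.89 Mb of the 741.6 Mb of autosomal gene body away from TSS, at 7.36 peaks per Mb, against 10.4 per Mb for the autosomal list as a whole. Their median length was 1318 bp (range 173 to 10819), with a median of 55 tags (21 to 557), a score of 79.0 (50 to 1996) and a fold enrichment of 8.97 (3.80 to 71.0). Peaks between genes had a median length of 1488 bp, 64 tags, a score of 82.1 and 8.74-fold enrichment, and those near a TSS had 1131 bp, 42 tags, 70.4 and 8.99. The 3 classes thus lay close together, with overlapping quartiles. The 173 members with scores under 51, just above the cutoff of 50, had a median fold enrichment of 7.62. The 76 members whose edge lay within 0.5 kb beyond the 5-kb limit had a median score of 73.5, and the 76 gene-body peaks left out just within it had 70.3.

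Summits were almost all intronic. An intron held 5417 of the 5460 summits (99.2%, 98.9 to 99.4) and an exon held 43 (0.788%, 0.585 to 1.06), 25 of them in untranslated regions. Among 14520 windows of 1 kb placed every 50 kb along the genome and sorted by the same rule, 95.1% (94.7 to 95.4) were centred in an intron. The exonic member with the highest score was in an untranslated region of Gm10845 (chr14:80260999-80262905), with a score of 155 from 93 tags and 8.33-fold enrichment. Of the 5369 summits within a single gene, 15.9% lay in the first 20% of the gene and 17.6% in the last 20%, with a median position 49.4% of the way from start to end. The evenly spaced windows had 15.7%, 20.8% and 52.8%.

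Most members lay in sequence that occurs many times in the genome. Copy number was measured as the median, over the 25-base words of the 1-kb window around the summit, of how often the word occurs in the mm9 reference, and a window with a median of at least 10 was called repeated. Of the members, 4215 were repeated (77.2%, 76.1 to 78.3), as against 845 of the 14520 evenly spaced gene-body windows (5.82%, 5.45 to 6.21). Over all autosomal peaks of the list the share was 81.6%, with 84.9% (84.4 to 85.5) between genes and 62.0% (59.8 to 64.1) near a TSS, so the members stood between the other classes. The median member window had 470 copies, the median evenly spaced window 1.00. A single copy was the state of 891 members (16.3%) and of 13276 of the evenly spaced windows (91.4%). The share of repeated members rose with peak score, from 57.4% of the 1365 peaks scoring 50 to 59.6 to 98.2% of the 1365 scoring 141 to 1996. It also rose with length, from 47.0% of the 1706 peaks of 500 to 1000 bp to 100% of the 127 peaks of 6000 to 8000 bp.

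**Figure D1:**
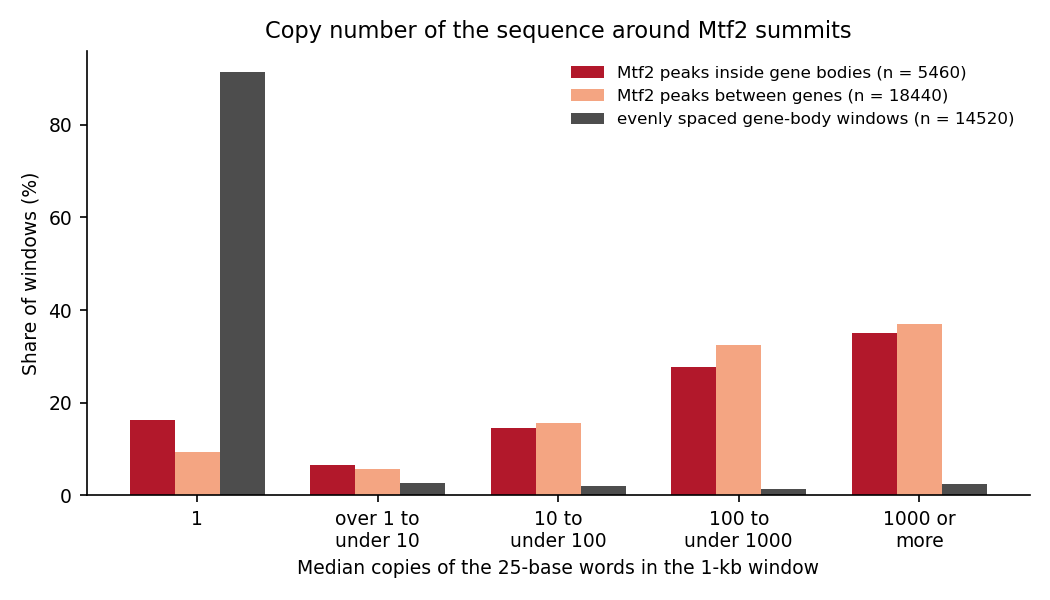
Share of 1-kb windows (%, vertical axis) by the median number of genomic copies of their 25-base words (horizontal axis), for Mtf2 peaks inside gene bodies, Mtf2 peaks between genes and evenly spaced gene-body windows. Of the evenly spaced windows 91.4% were single-copy, against 16.3% of the gene-body peaks, of which 35.1% had 1000 copies or more.

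The gene-body peaks of the other lists were not alike in this measure. The share in repeated sequence was 82.1% (79.7 to 84.2) of 1081 for Mtf2 in CD71+Ter119high cells and 61.7% (58.5 to 64.7) of 934 for H3K27me3 in WT CD71+Ter119-/lo cells. It was 68.3% (65.3 to 71.1) of 978 for H3K27me3 in Mtf2-null CD71+Ter119high cells, 9.79% (7.62 to 12.5) of 572 in WT CD71+Ter119high cells and 6.76% (4.62 to 9.78) of 370 in Mtf2-null CD71+Ter119-/lo cells. Both Mtf2 lists were thus mostly repeated, while the H3K27me3 lists fell on either side.

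At the median, GC content was slightly higher and the CpG ratio was higher than in the evenly spaced gene-body windows. The 1-kb window around a member summit had a median GC content of 44.7% (range 26.2% to 67.8%) and an observed-to-expected CpG ratio of 0.245, against 42.3% and 0.174 in the evenly spaced gene-body windows. A CpG-island-like window, with at least 50% GC and a ratio of at least 0.6, was found at 171 members (3.13%) and at 0.110% of the evenly spaced windows. The 171 were themselves repeated in 162 cases (94.7%), and 3 of the 891 single-copy members were island-like. Of the gene-body H3K27me3 peaks, 16.1% were island-like in WT CD71+Ter119high cells, 3.64% in WT CD71+Ter119-/lo cells, 2.97% in Mtf2-null CD71+Ter119-/lo cells and 0 of 978 in Mtf2-null CD71+Ter119high cells.

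When members were grouped by sequence, a few families held most of them. A peak joined the family of a higher-scoring peak when at least 50% of its length aligned to that peak at 80% identity or more, and each family is named here for the gene that hosts its highest-scoring peak, which says nothing about that gene. The 5460 members formed 1010 families. Of these, 16 had 30 or more members and together held 4035 peaks (73.9%), the 7 largest held 3624 (66.4%), and 852 families had 1 member each. No repeat annotation was used, so the families are described by structure and were not assigned to named elements.

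The Lphn3 family held 553 peaks (10.1% of members) in 364 genes on all 19 autosomes. Its peaks were the highest in median length, tags and score among the 16 families with 30 or more members, with a median length of 3375 bp, 166 tags, a score of 316 and 10.2-fold enrichment (quartiles 8.09 and 12.8). Seeds were taken in order of score, starting with the Lphn3 peak, and a peak that aligned to several seeds went to the first. The part of that order in the ranking was not tested. Of the 142 members of 6 kb or more, 69 were in this family and 48 in the Prnd/Prnp family. That second family (333 peaks in 211 genes) was seeded by the peak at chr2:131743481-131751924, within the annotated bodies of Prnd and Prnp, the doppel and prion protein genes. It had a score of 1151 from 388 tags and was enriched 12.5-fold. Its seed carried reading frames of 1182 and 509 codons and identical direct repeats of 493 bases that span 6.40 kb. The Ntf3 family (420 peaks in 378 genes; Ntf3 encodes a neurotrophin) had identical direct repeats of 395 bases spanning 1.89 kb, no frame over 177 codons, and a low CpG ratio of 0.103. Terminal direct repeats with long frames between them are the known layout of an LTR retrotransposon, and a short copy without frames is a known form of a non-autonomous one. The Alpk2 family (181 peaks) had direct repeats of 402 bases at 95.52% identity spanning 2.72 kb.

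The 2 largest families were neighbours in the genome and held tandem units. The Amy2a3 family (1057 peaks, 19.4% of members, in 718 genes) and the Lrba family (862 peaks, 15.8%, in 576 genes) had modest peaks, with median scores of 64.6 and 98.7 and fold enrichments of 7.62 and 8.44. Around the Lrba seed (chr3:86136647-86140486; 207 tags, score 745, fold enrichment 38.4) units of 214 bases stood in tandem. The Park2 family (218 peaks) likewise had tandem units, of 198 bases, and was richer in GC, with a median of 54.4%, and units of 674 bases stood in tandem at the Amy2a3 seed. The longest direct repeats at the Amy2a3 and Park2 seeds were 1448 and 1562 bases, with 90.33% and 96.42% identity, and spanned 3.39 and 3.21 kb. Of 2962 copies of the Lrba seed inside gene bodies, 2746 (92.7%) had a copy of the Amy2a3 seed within 1 kb, and 485 of 500 copies of the Park2 seed (97.0%) did too. Of 271 copies of the Lphn3 seed, 10 (3.69%) did. In the other direction, 80.6% of Amy2a3 copies had a Lrba copy within 1 kb and 14.7% a Park2 copy.

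**Figure D2:**
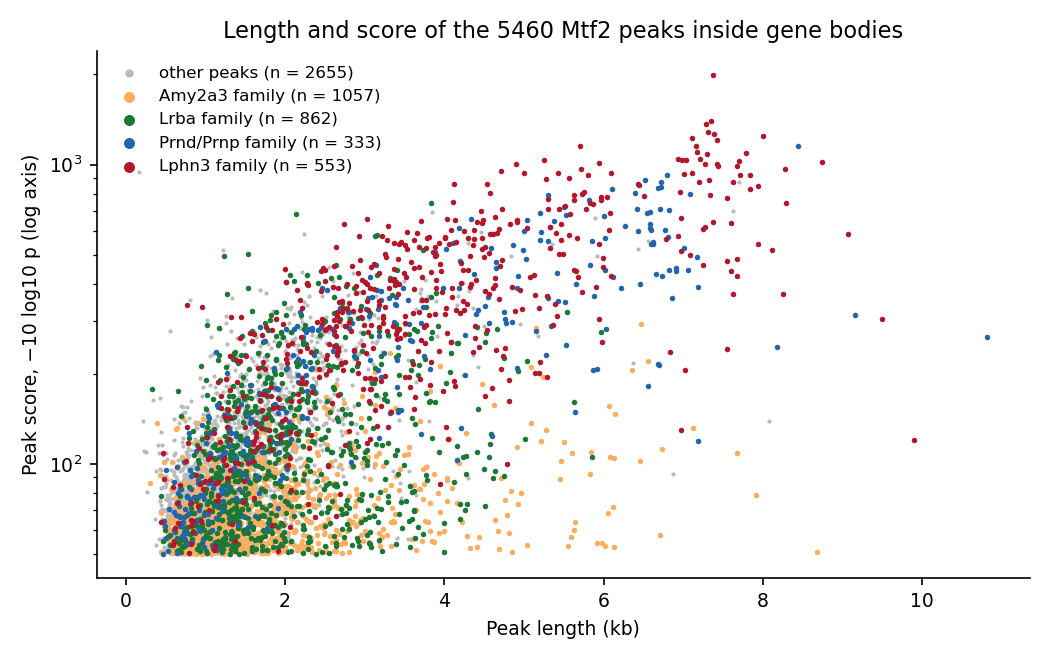
Peak length (kb, horizontal axis) against peak score (10 × −log10 p, vertical log axis), 1 point per member, coloured by sequence family. Lphn3-family and Prnd/Prnp-family peaks extend to the upper right (median scores 316 and 198), and Amy2a3-family peaks lie low (median score 64.6).

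Nearly every reference copy of the Lphn3 sequence carried a Mtf2 peak. A copy was counted where merged alignments covered at least 50% of the seed peak. The seeds were chosen from the Mtf2 list, so the Mtf2 shares in CD71+Ter119-/lo cells describe how completely a family was called. Of 271 copies inside gene bodies, 270 had a Mtf2 peak in CD71+Ter119-/lo cells (99.6%, 97.9 to 99.9), as did 1136 of 1156 between genes (98.3%, 97.3 to 98.9). The Prnd/Prnp sequence was the same, with 141 of 142 copies inside gene bodies (99.3%, 96.1 to 99.9) and 424 of 437 between genes (97.0%). The share was 94.9% of 118 copies for Alpk2, 60.6% of 500 for Park2 and 56.2% of 520 for Ntf3, but 35.7% (34.1 to 37.3) of 3285 for Amy2a3 and 34.4% (32.7 to 36.2) of 2962 for Lrba. Where not every copy was called, completeness went with the call. Of Amy2a3 copies that covered 50% to 70% of the seed, 12.1% (9.82 to 14.8) had a peak, against 31.7% (29.5 to 33.8) at 70% to 90% and 63.6% (60.3 to 66.8) above that. For Lrba copies the values were 23.3%, 44.4% and 78.1%. For Park2 they were 16.7% (of 6 copies), 35.7% (of 14) and 61.9%, and Ntf3 and Alpk2 copies went from 26.9% to 60.4% and from 75.0% to 97.1% over the first 2 classes. Nearly all Lphn3 copies were called in CD71+Ter119-/lo cells (100%, 100% and 99.2%), which leaves no room for a gradient, and in CD71+Ter119high cells their shares with Mtf2 were 50.5% (41.1 to 59.9), 67.6% (51.5 to 80.4) and 69.0% (60.6 to 76.3). A longer copy offers more bases in which a peak can be called, and the part of that in the gradient was not tested.

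In the later fraction, and in H3K27me3, the same families stood apart. Of the 271 gene-body Lphn3 copies, 167 (61.6%, 55.7 to 67.2) had a Mtf2 peak in CD71+Ter119high cells and 163 (60.1%, 54.2 to 65.8) an H3K27me3 peak in WT CD71+Ter119-/lo cells. In Mtf2-null CD71+Ter119-/lo cells 0 of 271 had an H3K27me3 peak, which allows up to 1.11% when the limit is set at 3 counts, as for other counts of 0 (1.40% by the Wilson interval). An H3K27me3 peak was at 0 copies in WT CD71+Ter119high cells and at 3 (1.11%) in Mtf2-null CD71+Ter119high cells. Of the 142 Prnd/Prnp copies, 71 (50%, 41.9 to 58.1) had Mtf2 in CD71+Ter119high cells, 39 (27.5%, 20.8 to 35.3) had H3K27me3 in WT CD71+Ter119-/lo cells and 0 had it in the Mtf2-null cells of that fraction. For the Amy2a3 copies the order was different: 4.87% had Mtf2 in CD71+Ter119high cells, 1.70% (1.32 to 2.21) H3K27me3 in WT CD71+Ter119-/lo cells, and 11.0% (9.97 to 12.1) H3K27me3 in Mtf2-null CD71+Ter119high cells. Lrba copies followed it, with 3.14%, 1.69% and 8.78%. The Mtf2-null CD71+Ter119high library was the deepest for H3K27me3, with 67169672 distinct tags against 18945784 in WT CD71+Ter119-/lo cells. The part of depth in these shares was not tested. The Mtf2-null list of CD71+Ter119-/lo cells has 1407 peaks in all, each with an FDR of 100%, against 4992 in WT, so a 0 there has to be read beside a short list. Its IgG control had 39667267 distinct tags of 93760420, against 16898992 of 22370612 for the WT control of that fraction. The part of the control in these shares was not tested.

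**Figure D3:**
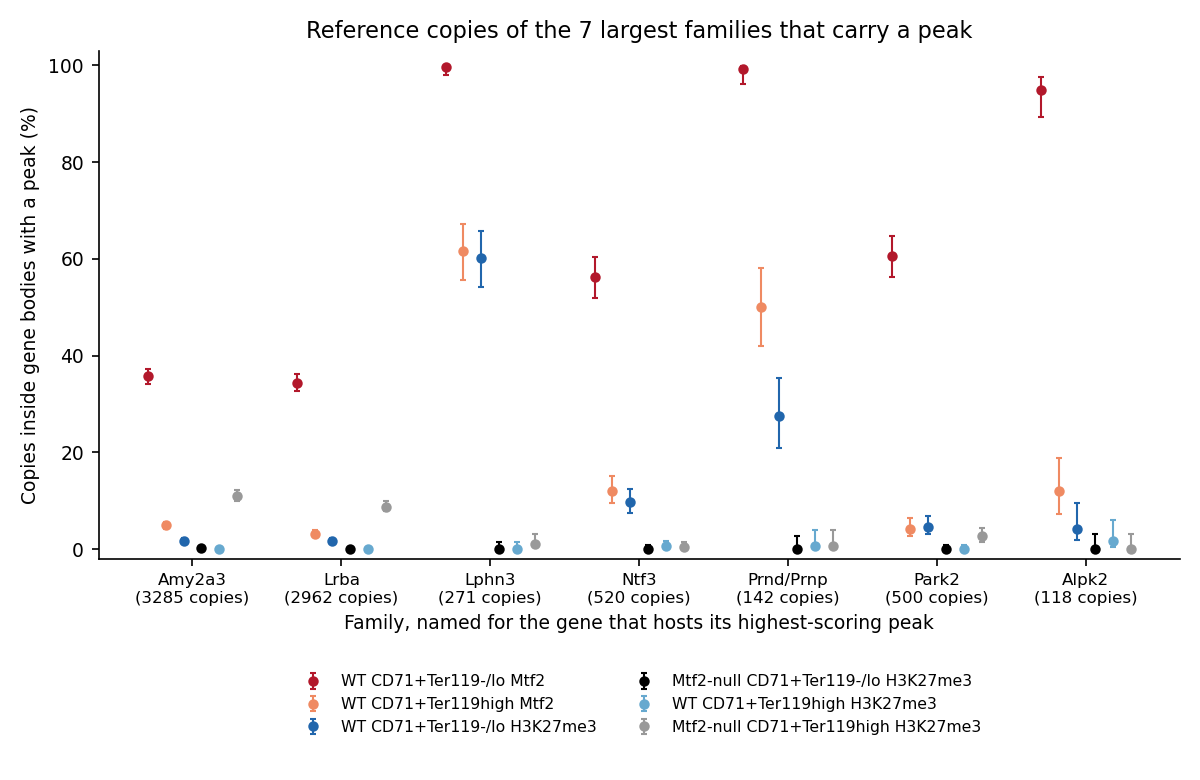
Share of reference copies inside gene bodies that carry a peak (%, vertical axis) for the 7 largest families (horizontal axis, with the number of copies), 1 point per peak list with its 95% Wilson interval. The Lphn3 and Prnd/Prnp copies are near 100% for Mtf2 in CD71+Ter119-/lo cells. For H3K27me3 in Mtf2-null CD71+Ter119-/lo cells all 7 families lie between 0 and 0.183%. For H3K27me3 in WT CD71+Ter119high cells the Lphn3 copies are at 0 and the Prnd/Prnp copies at 0.704%.

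Mtf2 peaks of CD71+Ter119-/lo cells spread over whole copies. Of 129 gene-body copies that covered at least 90% of the Lphn3 seed (median 7.11 kb), Mtf2 peaks of CD71+Ter119-/lo cells covered 99.4% of the bases at the median. The Mtf2 peaks of CD71+Ter119high cells and the WT H3K27me3 peaks of CD71+Ter119-/lo cells covered 21.9% and 18.6% of the copies in which they were called. The 120 Mtf2 summits inside these copies were spread along the copy, with 13.3% in its first 10%, 1.67% between 40% and 50% of the way and 15.0% in its last 10%. In CD71+Ter119high cells, 35 of 89 summits lay between 60% and 80% of the way along. Read by the strand of the longest frame, 200 of 269 gene-body Lphn3 copies were opposite to the gene (74.3%, 68.8 to 79.2), as were 2133 of 3273 Amy2a3 copies (65.2%, 63.5 to 66.8). Of the peaks themselves, 75.4% (71.6 to 78.8) of the Lphn3 family, 60.6% (57.6 to 63.5) of the Amy2a3 family and 58.7% (55.4 to 61.9) of the Lrba family were opposite, the last against 65.3% of the 2952 Lrba copies with a strand to compare. Copies of only a few smaller families went the other way, with 12 of 45 Nmnat2 copies (26.7%) and 5 of 64 Nmnat2 peaks (7.81%) opposite, and 37.2% and 41.7% of Tmem132d and Igsf5 copies. In all other mapped families more copies were opposite than not, as in Alpk2 (68.6%) and Cmya5 (94.1%). The strand of the exceptions is uncertain, and so is that of some families that went with the majority. The longest frames of the Nmnat2 and Igsf5 seeds had 119 and 124 codons, and those of Tmem132d (416 and 407) lay on different strands. In Alpk2 (156 and 152 codons) and Ntf3 (177 and 144) the longest and second-longest frames also lay on different strands. The same held for Atrnl1 (149 and 144) and 2510009E07Rik (111 and 108).

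Across all members, overlap was near that of the whole Mtf2 list for 4 of the 5 other lists. A Mtf2 peak of CD71+Ter119high cells shared at least 1 base with 575 members (10.5%, 9.74 to 11.4), against 10.3% of all autosomal Mtf2 peaks. An H3K27me3 peak of WT CD71+Ter119-/lo cells did with 504 (9.23%, 8.49 to 10.0), against 9.82%. For Mtf2-null CD71+Ter119high H3K27me3 the count was 128 (2.34%, 1.98 to 2.78) against 2.71%, and for Mtf2-null CD71+Ter119-/lo H3K27me3 it was 4 (0.0733%, 0.0285 to 0.188) against 0.0775%. WT CD71+Ter119high H3K27me3 overlapped 44 (0.806%, 0.601 to 1.08) against 0.360%. No peak of the 5 other lists touched 4407 members (80.7%, 79.6 to 81.7), against 80.2% of all autosomal Mtf2 peaks. As a share of the other list, 13.2% of the 4771 autosomal Mtf2 peaks of CD71+Ter119high cells, 11.7% of the 4695 WT CD71+Ter119-/lo H3K27me3 peaks and 0.718% of the 4456 WT CD71+Ter119high H3K27me3 peaks met a member.

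The 504 members with H3K27me3 in WT CD71+Ter119-/lo cells had a median score of 271, against 75.8 for the rest, and 229 of them (45.4%) belonged to the Lphn3 family. Outside that family 275 of 4907 members (5.60%) were overlapped. Peaks of the family were also long, with a median of 3375 bp against 1318 bp for all members. The part of length in the overlap was not tested. Of the 504, 168 (33.3%, 29.4 to 37.6) also had Mtf2 in CD71+Ter119high cells, and 0 had H3K27me3 in Mtf2-null CD71+Ter119-/lo cells, which allows up to 0.595% at the same limit of 3 counts and lies above the 0.0733% of all members. The H3K27me3 peaks at these sites were weak. With only those scoring at least 100 the share of members overlapped was 0.696%, and in the Lphn3 family it went from 41.4% (37.4 to 45.6) to 4.16%. At the Lphn3 peak itself, the strongest of 5 H3K27me3 peaks had a score of 131 from 46 tags, 24.1-fold enrichment and an FDR of 8.93%. At the Fmo1 peak (Fmo1 encodes a flavin monooxygenase) it had a score of 117 from 40 tags, 10.6-fold enrichment and an FDR of 7.77%, and the Mtf2 peak in CD71+Ter119high cells had a score of 91.3 from 40 tags and was enriched 9.07-fold. At Ankrd22, H3K27me3 was just past the cutoff, with 19 tags and a score of 50.4.

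Members called in both fractions were high in the first. Their median length there was 2750 bp, against 1318 bp for all members, and the part of length in the overlap was not tested. The 575 had a median score of 217 in CD71+Ter119-/lo cells, where the others had 75.0, and the matching peaks in CD71+Ter119high cells had a median score of 64.0. Their fold enrichments were alike at the median, 9.71 and 9.84, and across the 575 members the scores of both fractions had a Spearman rho of 0.18, as a description over peaks that share 2 libraries and many copies of one sequence. The Lphn3 family gave 236 of them (41.0%) and the Prnd/Prnp family 99 (17.2%). The highest-scoring was in Tmem163, which encodes a zinc transporter of vesicles, with a score of 1398 from 393 tags and 15.1-fold enrichment in CD71+Ter119-/lo cells. In CD71+Ter119high cells it had 33 tags, 102 and 8.94, and no H3K27me3 list had a peak there.

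**Figure D4:**
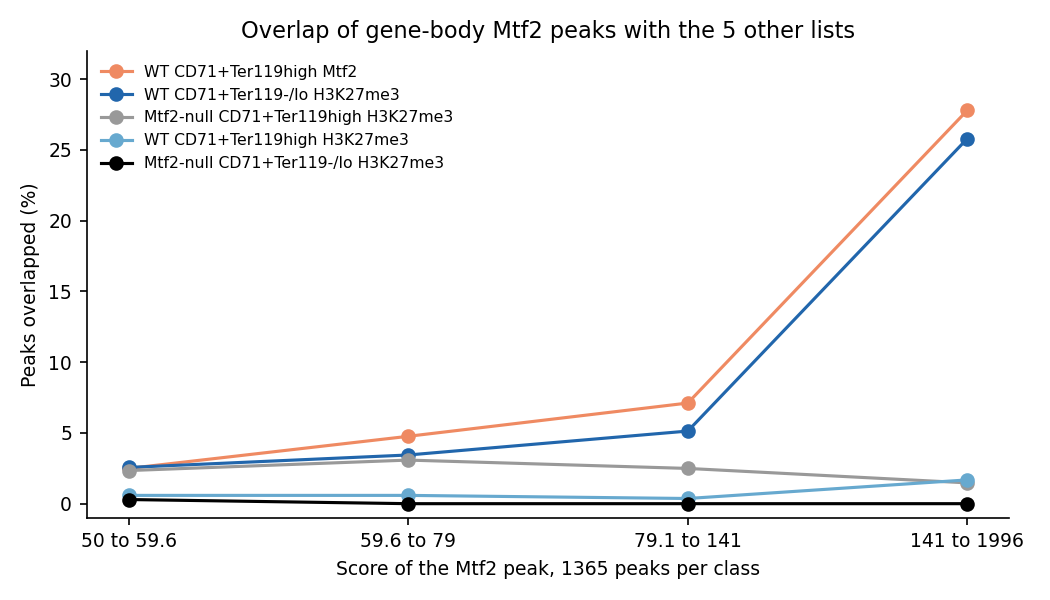
Share of members overlapped by a peak of each other list (%, vertical axis) in 4 classes of 1365 members by Mtf2 score (horizontal axis). Mtf2 in CD71+Ter119high cells goes from 2.49% in the lowest class to 27.8% in the highest and WT CD71+Ter119-/lo H3K27me3 from 2.56% to 25.8%, while the Mtf2-null CD71+Ter119-/lo list meets 4 members, all in the lowest class. The median length of the members also goes from 843 to 2669 bp, and the part of length in the overlap was not tested.

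More than any other locus, 1 tandem array met H3K27me3 of WT CD71+Ter119high cells. Of the 44 members, 26 lay in a tandem array of 39 peaks in an intron of Gm20388, between chr8:126062175 and chr8:126148023, over 85.8 kb with a GC content of 59.0% to 66.8%. The 44 were met by 32 H3K27me3 peaks, so 1 H3K27me3 peak could meet several members. In the array, the H3K27me3 peak at chr8:126138084-126148581 did so. Gm20388 is an annotated gene that spans 4435 kb and many other genes. The highest peak of the array (chr8:126069818-126077518) had 328 tags, a Mtf2 score of 876 and a fold enrichment of 15.1, and the H3K27me3 peak on it in WT CD71+Ter119high cells had a score of 223 from 115 tags, 7.18-fold enrichment and an FDR of 2.17%. In WT CD71+Ter119-/lo cells 19 of the 39 had H3K27me3. In Mtf2-null CD71+Ter119high cells 2 did. Without the array, 18 of 5421 members (0.332%, 0.210 to 0.524) were overlapped, against 67 of 25766 autosomal peaks outside the array (0.260%, 0.205 to 0.330) and 0.195% of peaks between genes. The next highest was in Cd84, which encodes an immune-cell receptor of the SLAM family, in the Prnd/Prnp family (chr1:173805202-173811825). It had 359 tags and a score of 552, and was met by Mtf2 in both fractions and by H3K27me3 in both WT fractions.

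The 128 members with H3K27me3 in Mtf2-null CD71+Ter119high cells were mostly of the 2 largest families, 66 in the Amy2a3 family (51.6%) and 42 in the Lrba family (32.8%), with 3 in the Lphn3 family. The highest in score were in Gm6882 (1017), Lrrc2 (486) and Slc4a4 (420), which were the 3 of the Lphn3 family, and in Gm20388 (351) and Dok6 (279). In Slc4a4, a sodium bicarbonate cotransporter gene, the H3K27me3 peak had 78 tags, a score of 131 and an FDR of 0.660%, and no H3K27me3 peak of the WT lists met the member. The 4 members that met a peak of Mtf2-null CD71+Ter119-/lo cells lay in Glt1d1, Mapt, Ap3s1 and Synj2, and had Mtf2 scores of 54.9, 54.3, 50.9 and 50.4. All were thus close to the cutoff, and the Mtf2-null peaks on them had an FDR of 100%.

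The 5 highest fold enrichments were all in large families. They were 71.0 in Lmbr1 (150 tags, score 685), 46.1 in Mrc1, the macrophage mannose receptor gene (132 tags, score 493), 43.9 in A330008L17Rik, 43.1 in Ptprn2 and 40.8 in Arfip1. Of these, 3 fell in the Lrba family, 1 in the Park2 family (Ptprn2) and 1 in the Lphn3 family (Arfip1). The WT CD71+Ter119-/lo H3K27me3 list had a peak on all but Mrc1, with fold enrichments of 27.4 in Lmbr1 and 12.7 in A330008L17Rik. Both ChIP libraries were called against the same IgG library. Most tags were in long peaks of Adam5 (557), Gm16432 (536), Gm7995 (505), Skint6 (503) and Tubgcp2 (497), with fold enrichments of 6.90 to 17.7. A tag count followed length across members (Spearman rho 0.96 over 5460 peaks), whereas fold enrichment did not (0.00).

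Single-copy members were short and low but not less enriched. The 891 had a median length of 737 bp, 27 tags, a score of 59.7 and 11.0-fold enrichment, against 1718 bp, 75.0 tags, 84.4 and 8.44 for the 1917 members with at least 1000 copies. Of the 891, 721 (80.9%) were under 1 kb and 69 (7.74%) scored at least 100, as 2033 of all members (37.2%) did. They lay in 781 genes, at 1.20 per Mb, and 73 (8.19%) met any other list, 37 (4.15%) the WT CD71+Ter119-/lo H3K27me3 list and 29 (3.25%) the Mtf2 list of CD71+Ter119high cells. The highest, chosen after their values were seen, were in Fam5c (173 bp, 40 tags, score 946, fold enrichment 23.9), Xpnpep1 (130 tags, 320, 25.2), Lrrc63 (76 tags, 301, 36.4) and Cdyl (54 tags, 277, 26.0). Lrrc63 was met by Mtf2 in CD71+Ter119high cells (26 tags, score 59.4) and by WT CD71+Ter119-/lo H3K27me3 (29 tags, score 79.1), and the peaks in Xpnpep1 and Cdyl aligned to the Ntf3 family. Alone in their family were 564 of the 891 (63.3%), so the rest aligned to other members although their words were single-copy. H3K27me3 of WT CD71+Ter119high cells met 5 of the 891, in Actn1, Dnm1, Pdgfc, E130308A19Rik and Dlgap5, also named after their values were seen, with Mtf2 scores of 51.4 to 71.4. The H3K27me3 peaks on them were near the cutoff too, with scores of 52.8 to 56.2 and FDRs of 26.4% to 30.1%.

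Host genes were long. A member lay in 2406 of 21418 autosomal protein-coding genes, which is 11.2% of them, with a median length of 114 kb against 12.4 kb for genes without one. The share of genes with a member went from 0.154% of 8453 genes under 10 kb to 49.6% of 1778 genes of 100 to 300 kb, 88.8% of 455 genes of 300 to 1000 kb, and all 48 genes of 1000 kb or more. Peaks per Mb of the gene body searched changed less, from 3.63 in the shortest class to 7.36 at 100 to 300 kb and 9.21 in the longest. By chromosome the density was 5.62 per Mb on chromosome 11 at the lowest and 10.3 per Mb on chromosome 14 at the highest. One member was the state of 1296 host genes, and 60 genes had 10 or more.

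**Figure D5:**
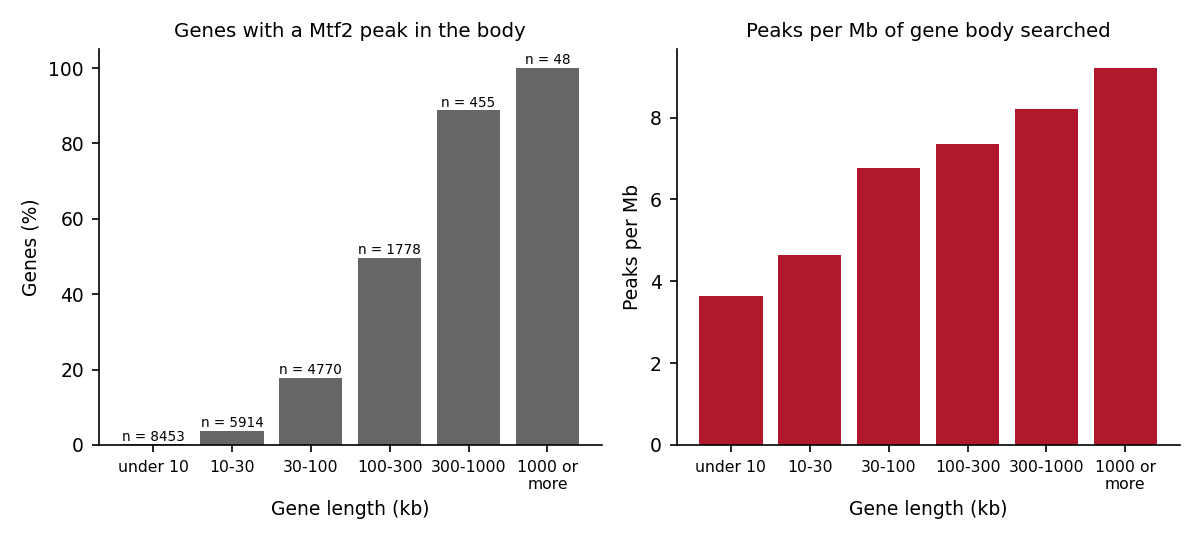
Left, share of genes with at least 1 member (%, with the number of genes) and right, members per Mb of gene body away from TSS, both by gene length (kb, horizontal axis). The share rises from 0.154% to 100% while the density goes from 3.63 to 9.21 per Mb.

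After Gm20388 (66 peaks), the genes with most members were Lrp1b (27; an LDL receptor family gene), Agbl4 (25; a carboxypeptidase that trims tubulin tails), Cntnap2 (22; a neurexin-family adhesion protein), Pcdh15 (21; a cadherin of hair-cell tip links) and Gm10406 (19). Fhit, a dinucleoside triphosphate hydrolase gene, Fgfr2, a fibroblast growth factor receptor gene, and Gabrg3, a GABA receptor subunit gene, had 18 each, and Fam190a had 17. They spanned 434 to 3009 kb after Gm20388, and in each of them at least 10 of the members were repeated. The longest of these spans was the annotated body of Fgfr2, with 5.98 peaks per Mb. Its 18 members were counted over that whole annotation, and whether it reaches beyond the receptor gene itself was not checked. In Lrp1b 26 of 27 were. Its highest peak (chr2:41599933-41606970) had a score of 1035 from 398 tags and was enriched 11.6-fold, and its fold enrichments ran from 4.68 to 11.6. In Fhit the highest (chr14:10561339-10568267) had a score of 1046 from 376 tags and was enriched 34.6-fold. Among genes with at least 3 members, density was highest in Vmn2r35, a vomeronasal receptor gene, with 8 peaks in 33.7 kb (237 per Mb), all 8 of the Lphn3 family. It was 198 per Mb in Gm3115, 193 in Ms4a12, 159 in Plcd3, a phospholipase C gene, and 149 in Gm11109.

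The neuronal gene lists had a larger share of host genes than the 11.2% of all genes. Their median gene lengths ran from 28.9 kb for potassium channels to 435 kb for synaptic and neuronal adhesion. Of 88 genes of synaptic and neuronal adhesion, 62 (70.5%, 60.2 to 79.0) had a member, with a median gene length of 435 kb and 7.30 peaks per Mb, against 7.36 per Mb over all gene bodies. Cntnap2, Pcdh15 and Astn2 (16 peaks) had the most. Of 11 homologues of human fragile-site genes, 10 had one (8.18 per Mb), led by Lrp1b, Fhit and Macrod2 (14 peaks). The glutamate and GABA receptor list had 20 of 42 (8.97 per Mb), among them Gabrg3 and Grm7, with 12 peaks in Grm7. The potassium channel list had 28 of 94 (8.09 per Mb), with 6 peaks in Kcnip4 and 5 each in Kcnq3 and Kcnh1. The calcium and sodium channel list had 11 of 36 (5.91 per Mb), with 10 peaks in Cacna2d3, 7 in Cacna2d1 and 3 in Cacna1e. The axon guidance list had 23 of 75 (6.63 per Mb), with 13 peaks in Epha6, 7 in Unc5d and 6 in Dcc.

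In the blood lists, set beside the 11.2% of all genes and 7.36 peaks per Mb, the shares lay on either side while the densities were lower. Both measures went with gene length. Genes of 10 to 30 kb had 3.64% and 4.64 per Mb, and genes of 30 to 100 kb had 17.7% and 6.78. Median lengths were 87.9 kb for the blood-lineage transcription factors and 30.8 kb for the Wnt pathway. The part of length in these values was not tested. Of 46 genes of the erythroid programme, with a median length of 17.7 kb, 1 had a member (2.17%, 0.385 to 11.3; 3.93 peaks per Mb): Sox6, a repressor of embryonic globin, with 5 peaks, all repeated, of which the highest (chr7:122959419-122962484) had a score of 320 from 133 tags and was enriched 10.1-fold. None of the 5 met the later Mtf2 list or H3K27me3 in WT CD71+Ter119-/lo cells. Over all members these shares were 10.5% and 9.23%, so a 0 among 5 says little. Of 49 blood-lineage transcription factor genes, 11 (22.4%, 13.0 to 35.9) had 17 members at 2.94 per Mb, and 5 of the 17 (29.4%) were repeated. Mecom, a stem-cell regulator, had 3, with a highest score of 284, Erg, an ETS factor, had 2 (145 tags, score 433, fold enrichment 17.2; 1 of the 2 with H3K27me3 in WT CD71+Ter119-/lo cells), and Ebf1, the B-cell factor, had 2 (highest score 94). Of 79 Wnt pathway genes, 8 (10.1%, 5.22 to 18.7) had 12 members at 3.61 per Mb. Ror2, a Wnt receptor, had 5 (highest score 82) and the others 1 each, of which the highest scores were in Znrf3, a ligase that removes Wnt receptors (290), and Tcf7l2, a transcription factor of the pathway (97). None of the 12 met H3K27me3 in WT CD71+Ter119-/lo cells, which met 9.23% of all members, so a 0 among 12 says little. Of 33 Polycomb and demethylase genes, 4 had a member, with 2 in Asxl3 (highest score 86) and 1 each in Scmh1 (81) and Aebp2 (54). Of 80 ribosomal protein genes 0 had one, with 0.0506 Mb of body searched. No list was tested.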

How the data were processed

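Reads were aligned by the authors to mm9 with Bowtie2 2.2.3, and peaks were called by the authors with MACS 1.3.7, each ChIP against the IgG control from the same cells, at a p cutoff of 1e-05. The names of the aligned files in the headers mention masking, and the handling of reads with several equally good places is not given in the sources used here. The methods state replicates of 2, and 1 list per condition was used. Per peak, the deposited lists give the tag count, a score (10 times −log10 p), the fold enrichment over IgG (a ratio) and the FDR in percent.

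Peaks were assigned to GENCODE M1 genes on NCBIM37, whose chromosome lengths match mm9. Overlap needed at least 1 shared base. Word copies were counted on both strands of the reference. Families and genome copies came from megablast (BLAST 2.17.0; identity of at least 80%, alignments of at least 100 bases), with Python 3.11.15, pandas 2.3.3 and scipy 1.17.1. Counting scripts were tested on simulated data. Members and gene lists were chosen with earlier results of these data known, and the copy and family measures after the peaks were seen.

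Named peaks were the 8 highest in score, the 5 highest in fold enrichment, the 5 with most tags, the 5 highest in score among those met by each other list (the Mtf2-null lists together) and the highest exonic one. Named genes were the 10 with most members, the 5 densest with at least 3, and the 3 with most members in each list. One gene that this rule names is not reported here. Further named peaks are said to be chosen after their values were seen. Alternatives were a peak score of at least 100, TSS windows of 1 kb and 10 kb, the peak centre, a single host gene, overlap of 50% of the shorter peak, and the other list's peaks scoring at least 100.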

Additional observations from a re-analysis of the deposited data

How the results depend on the processing

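With 1 library per condition no value has a replicate error, and the tags cannot be placed at 1 copy of a repeated sequence. No paired analysis was possible because each condition has 1 library and no result comes from a test. The values compared were single counts, shares and medians, which have no direction, so a reversal could not be scored. Of the first set of alternatives, 43 values stayed within the interval of the reported one (1.5 times for counts) and 19 moved.

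With a peak score of at least 100, 2033 peaks in 1188 genes remained, 2032 of them in introns (100% after rounding; the exception is in Gm10845), with a median GC of 47.1% and fold enrichment of 10.1. Overlap was then 21.4% with Mtf2 of CD71+Ter119high cells and 19.5% and 1.33% with WT H3K27me3 of the earlier and later fraction. It was 0 and 1.67% with the Mtf2-null lists. Taking only peaks of the other list scoring at least 100, the same 5 shares were 1.28%, 0.696%, 0.330%, 0.0183% and 0.330%. Introns held 99.5% with a TSS window of 10 kb and 98.8% with 1 kb. Median GC was 46.8% in 300 bp and 45.2% over whole peaks.

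These alternatives were chosen after seeing the data. The repeated share was 83.7% at 2 or more copies, 62.7% at 100 or more, 73.9% with words of 31 bases and 94.5% of peaks scoring at least 100. For the evenly spaced windows it was 8.57%, 3.80% and 4.88% under the first 3. The share of the Lphn3 family with WT CD71+Ter119-/lo H3K27me3 was 47.0% at 90% identity, 46.0% with 80% of the peak aligned, and 4.16% with peaks scoring at least 100. WT CD71+Ter119high H3K27me3 met 0.332% without the Gm20388 array. In single-copy peaks, WT CD71+Ter119-/lo H3K27me3 met 4.15% and Mtf2 of CD71+Ter119high cells 3.25%.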
